A study of Mus musculus with 9 samples.

Results

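The enzymes that cut the extracellular matrix, and the proteins that hold them in check, were followed here in brown adipose tissue, the heat-producing fat depot of mammals. They are the matrix metalloproteases (MMPs), the ADAMTS proteases with their ADAMTS-like relatives, and the tissue inhibitors of metalloproteases (TIMPs). Members were the genes whose mouse symbol is Mmp followed by a digit, other than Mmp12, Timp1 to Timp4, or a symbol that starts with Adamts. This gave 50 genes of the 49315 listed: 22 Mmp genes, 4 Timp genes, 19 Adamts genes and 5 Adamtsl genes. All mice of both groups were male, diet-induced obese C57Bl/6J animals, 14 weeks old before 3 weeks of acclimation, fed a 60% high fat diet to a weight of about 50 g, caged singly and not kept at thermoneutrality. Under the skin they received either vehicle (n = 4) or cotadutide (n = 5), a peptide agonist of the GLP-1 and glucagon receptors, every day for 28 days, and the dose is not given in the sources used here. Each library held polyadenylated RNA from 30 mg of tissue of 1 mouse. The comparison asked which genes differed under the drug.

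MMPs are zinc proteases that are made as inactive precursors and, between them, cleave collagens, basement membrane and many cell surface proteins. TIMPs bind their active site, and TIMP-3 also inhibits several ADAMTS enzymes. ADAMTS proteases are secreted and either trim procollagen, cut proteoglycans such as versican and aggrecan, or cut other matrix proteins, whereas ADAMTS-like proteins share their accessory domains but lack the protease domain. In fat, such enzymes are known for opening the pericellular collagen as the depot expands or regresses.

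Library totals ran from 16.1 to 25.1 M (mega) counts in vehicle and from 10.8 to 19.5 M counts in cotadutide mice, and the members took between 0.0341% and 0.0646% of the counts of a library. Expression is printed as CPM, which divides a gene's reads by each library's size in M counts after TMM scaling. Where a mean ± SD is printed, n was 4 in vehicle and 5 in cotadutide. All 8 brown adipocyte markers were tested, which means that their RNA was present. Mean Ucp1 was 4781 CPM without and 5886 CPM with the drug and was not called (edgeR adjusted p = 0.159). Skeletal muscle RNA was in every library. The sum of 12 muscle markers ran from 20759 to 43597 CPM in vehicle and from 4696 to 17773 CPM in cotadutide mice, without overlap. The sum of 14 macrophage markers ran from 381 to 629 CPM and from 230 to 511 CPM, and 6 of the 13 tested were lower. That of 10 fibroblast and progenitor markers ran from 395 to 667 CPM and from 282 to 531 CPM, and 1 of 10 was lower. Of all genes tested, 9.34% were lower. The log2 fold change was below 0 for 9 of the 10 fibroblast markers and all 13 tested macrophage markers, with medians of -0.68 and -0.77. None of the 12, 14 or 10 markers was without counts. The part of these cells in the results below was not tested, and in bulk tissue fewer cells of a type and less RNA per cell cannot be told apart.

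5 members fell under cotadutide and none rose. They were the proteoglycan-cleaving proteases Adamts1 and Adamts5 and the ADAMTS-like genes Adamtsl2, Adamtsl4 and Adamtsl5. Of the 50 members, 32 had enough counts to be tested, and 5 of these were lower (15.6%) and 0 higher by edgeR's quasi-likelihood test at a Benjamini-Hochberg adjusted p of 0.05. Over all 14747 genes tested 9.34% were lower and 9.31% higher, or 18.7% in either direction, so the share of members called in either direction was close to the background. At an unadjusted p of 0.05, 10 of the 32 members passed, 9 of them lower, against 5267 of the 14747 genes in either direction. The median log2 fold change was -0.41 over the 32 tested members and 0.00315 over all genes, and 25 of the 32 had a value below 0, against 7324 of the 14747. The 5 calls were made in 2 of the 6 tested proteoglycan-cleaving proteases and 3 of the 5 ADAMTS-like genes. None of the 11 tested Mmp genes, the 4 Timp genes, the 2 tested procollagen N-proteinases or the 4 other tested Adamts genes was called, and whether these families differ was not tested.

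**Figure D1:**
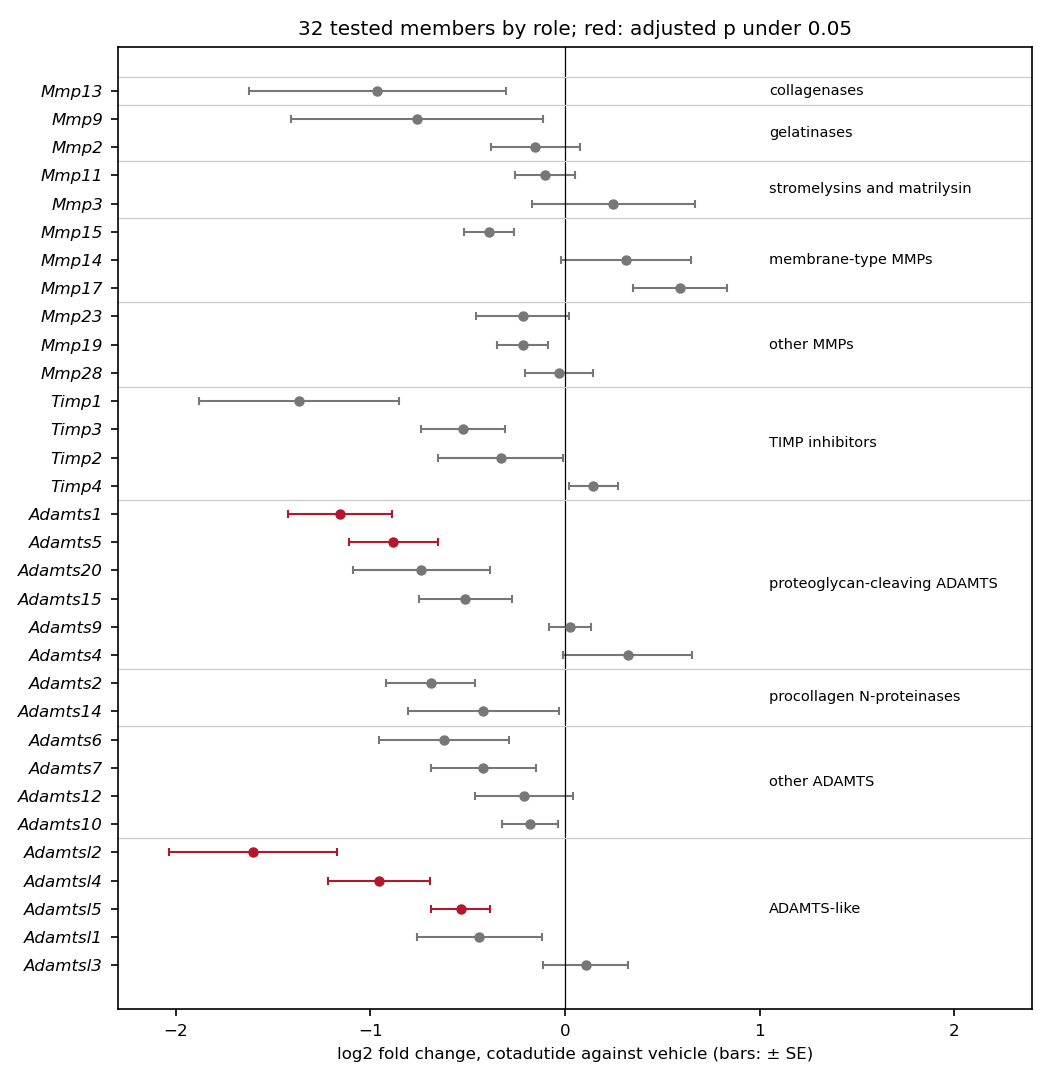
The log2 fold change of cotadutide against vehicle (horizontal axis, points with ± SE bars) is drawn for the 32 tested members grouped by role, in red where the edgeR adjusted p is under 0.05. The 5 red points are Adamts1, Adamts5, Adamtsl2, Adamtsl4 and Adamtsl5, all left of 0, and no MMP or TIMP is red.

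Adamts1 and Adamts5 encode secreted proteases that cut versican and aggrecan, and the genes are neighbours. In the mm10 coordinates of the files, Adamts1 (ENSMUSG00000022893) lies on the minus strand of chromosome 16 from 85793827 to 85803113. Adamts5 (ENSMUSG00000022894) follows on the same strand from 85858170 to 85901125, 55.1 kb away. Adamts1 stood at 33.2, 33.4, 34.7 and 12.7 CPM in vehicle mice 1 to 4 and at 14.5, 8.78, 14.1, 14.8 and 11.6 CPM in cotadutide mice 1 to 5. Vehicle mouse 4 lay inside the cotadutide range, and the other 3 vehicle mice were all above it. The mean fell 2.23 times, from 28.5 ± 10.5 to 12.7 ± 2.55 CPM (edgeR log2 fold change -1.16 with SE 0.27 and adjusted p = 0.0214). Adamts5 stood at 39.4, 40.5, 36.2 and 21.3 CPM in vehicle and at 23.0, 12.9, 14.6, 17.8 and 25.3 CPM in cotadutide mice. Again vehicle mouse 4 was the low one and fell among the cotadutide values, of which mice 1 and 5 were the highest. The mean went from 34.4 ± 8.88 to 18.7 ± 5.33 CPM, 1.84 times lower (edgeR log2 fold change -0.88 with SE 0.23 and adjusted p = 0.0277).

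The other proteoglycan-cleaving members did not pass. Adamts9, which cuts versican and is needed in development, was level at 15.4 ± 0.703 and 15.6 ± 2.15 CPM (edgeR log2 fold change 0.026 with SE 0.11 and adjusted p = 0.886). Its sign turned with raw library totals (log2 fold change -0.042). Its 4 vehicle mice spanned only 14.7 to 16.4 CPM. Adamts15, Adamts20 and Adamts4 had means of at most 2.61 CPM and log2 fold changes of -0.51, -0.74 and 0.32 (edgeR adjusted p = 0.147, 0.154 and 0.515). Adamts8 had 50 counts over the vehicle and 18 over the cotadutide libraries and was too low to test.

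ADAMTS-like proteins have no protease domain and are matrix components, several of which bind fibrillin microfibrils. Adamtsl4, a fibrillin-binding protein known from the lens zonule (ENSMUSG00000015850, chromosome 3, 95676201 to 95687917), stood at 17.7, 11.3, 18.3 and 15.8 CPM in vehicle mice 1 to 4. In cotadutide mice 1 to 5 it stood at 13.0, 5.19, 4.98, 9.03 and 8.0 CPM. Only cotadutide mouse 1 reached into the vehicle range. The mean was 1.94 times lower (15.7 ± 3.16 against 8.03 ± 3.27 CPM, edgeR log2 fold change -0.96 with SE 0.26 and adjusted p = 0.0329). Adamtsl5, another secreted member that binds fibrillin (ENSMUSG00000043822, chromosome 10, 80339110 to 80348412), stood at 23.6, 20.2, 18.2 and 23.5 CPM against 19.4, 13.2, 10.8, 15.4 and 14.7 CPM. The groups overlapped by 1 pair, cotadutide mouse 1 above vehicle mouse 3. Adamtsl5 was 1.45 times lower (21.4 ± 2.65 against 14.7 ± 3.18 CPM, edgeR log2 fold change -0.54 with SE 0.15 and adjusted p = 0.0327).

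Adamtsl2, whose human counterpart is mutated in geleophysic dysplasia (ENSMUSG00000036040, chromosome 2, 27079379 to 27108981), had the largest fold of the 5 and the fewest counts. It had 103 counts over the vehicle and 30 over the cotadutide libraries. The filter on counts let it into the test through the vehicle libraries, with 15 to 37 counts each, while the cotadutide libraries held 3 to 9. The values were 1.44, 0.658, 0.884 and 1.89 CPM in vehicle and 0.257, 0.577, 0.213, 0.275 and 0.762 CPM in cotadutide mice, and cotadutide mouse 5 lay above vehicle mouse 2. The mean was 3.04 times lower (1.22 ± 0.556 against 0.417 ± 0.240 CPM, edgeR log2 fold change -1.60 with SE 0.43 and adjusted p = 0.0291). The remaining ADAMTS-like genes did not pass. Adamtsl1 was at 1.84 ± 0.488 and 1.35 ± 0.600 CPM (edgeR adjusted p = 0.347) and Adamtsl3 at 5.09 ± 0.614 and 5.52 ± 1.90 CPM (log2 fold change 0.11, edgeR adjusted p = 0.761). The value of Adamtsl3 turned to -0.15 without cotadutide mouse 3, whose 8.75 CPM was the highest.

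**Figure D2:**
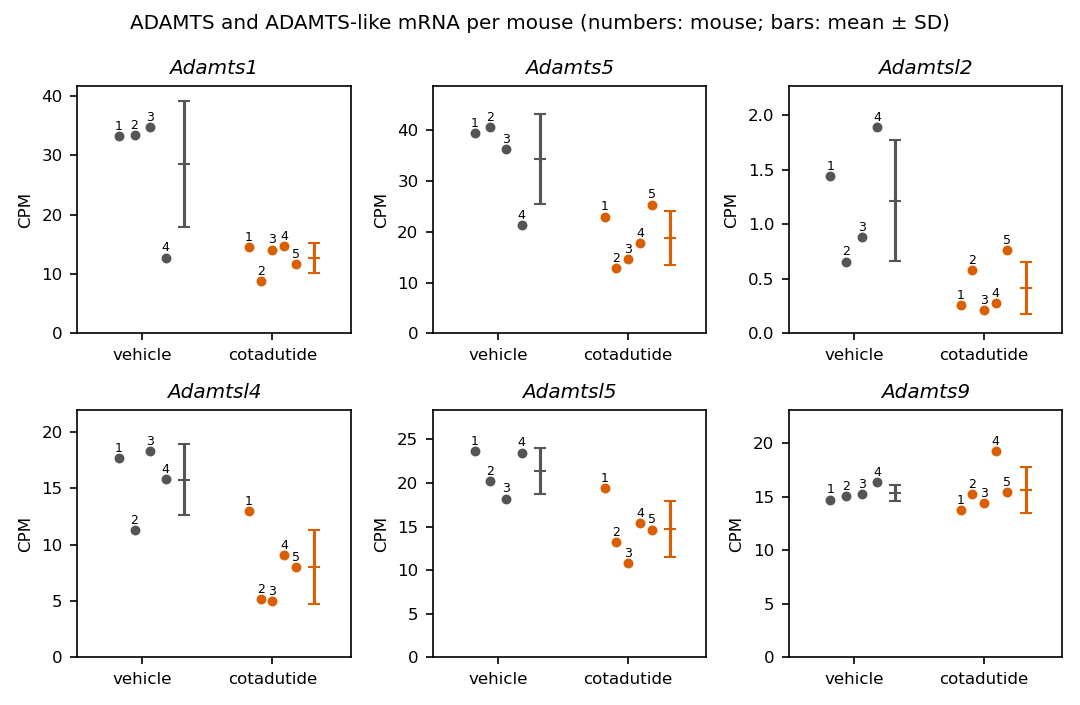
CPM (vertical axes, from 0) of the 5 members that fell and of Adamts9 is plotted for each vehicle (grey) and cotadutide (orange) mouse, with mouse numbers and the mean ± SD beside the points. In Adamts1 and Adamts5 vehicle mouse 4 sits with the cotadutide mice at 12.7 and 21.3 CPM, and in Adamts9 the groups lie at the same level.

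These 5 calls rested on few animals, although the direction did not turn in any of the 16 alternative fits (15 for Adamtsl2, which a stricter filter removed). None of the 5 was called without vehicle mouse 1 (edgeR adjusted p from 0.0726 to 0.1), without vehicle mouse 2 (0.0514 to 0.078) or without cotadutide mouse 2 (0.0528 to 0.0871). Without vehicle mouse 3 only Adamtsl5 passed (edgeR adjusted p = 0.0489, the others from 0.0542 to 0.0846), and without cotadutide mouse 3 only Adamts1 (0.0437, the others from 0.0512 to 0.0622). Without cotadutide mouse 4, Adamts1 and Adamtsl5 passed, while Adamts5, Adamtsl2 and Adamtsl4 had an edgeR adjusted p from 0.0545 to 0.0625. Without vehicle mouse 4 only Adamtsl4 was lost (0.06), and Adamts1 reached an adjusted p of 0.000294. The share of all genes called moved as well, from 18.7% to 0.938%, 0.992% and 5.55% when vehicle mouse 1, vehicle mouse 2 or cotadutide mouse 2 was dropped. The sizes moved less: the log2 fold change stayed between -1.40 and -1.06 for Adamts1, -1.05 and -0.78 for Adamts5, -1.89 and -1.33 for Adamtsl2, -1.24 and -0.83 for Adamtsl4, and -0.69 and -0.47 for Adamtsl5.

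**Figure D3:**
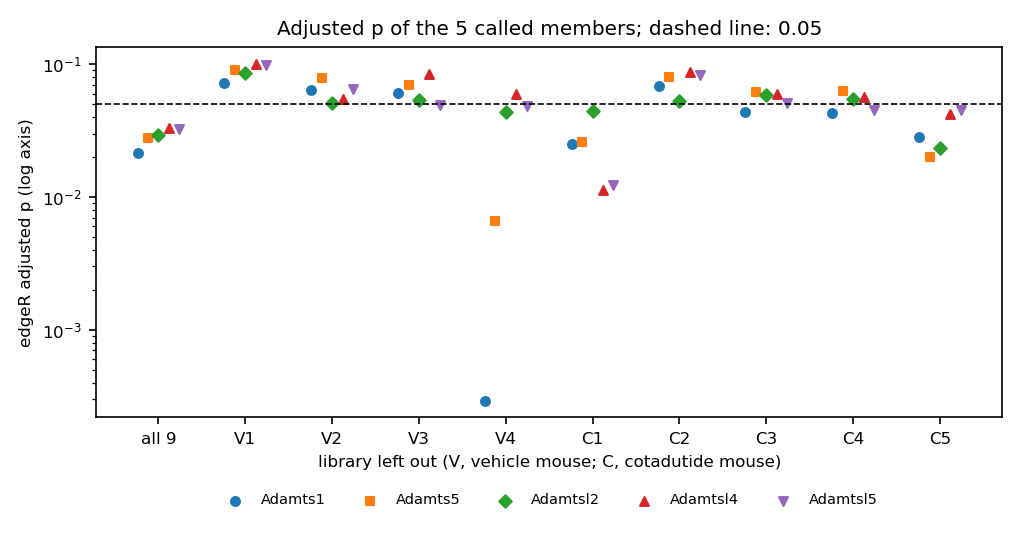
The edgeR adjusted p (log axis) of each of the 5 members is plotted with all 9 libraries and with each library left out. All points lie above the dashed line at 0.05 when vehicle mouse 1, vehicle mouse 2 or cotadutide mouse 2 is left out.

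Sequence upstream of the start site was at hand for 4 of the 5 members that fell, from RefSeq's GRCm38.p6 promoters. The 120 bases before the start are shown 5′ to 3′ on the gene's strand, to let the called genes be compared, with a TATAA match within 50 bases of the start in capitals.
Adamts1, chr16:85803114-85803233, minus strand: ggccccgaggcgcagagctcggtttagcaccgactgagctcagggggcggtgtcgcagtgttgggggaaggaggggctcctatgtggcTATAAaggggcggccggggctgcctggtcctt
Adamtsl2, chr2:27079259-27079378, plus strand: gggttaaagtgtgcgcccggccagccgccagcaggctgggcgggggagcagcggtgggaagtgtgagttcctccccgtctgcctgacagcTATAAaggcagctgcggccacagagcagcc
Adamtsl4, chr3:95687918-95688037, minus strand: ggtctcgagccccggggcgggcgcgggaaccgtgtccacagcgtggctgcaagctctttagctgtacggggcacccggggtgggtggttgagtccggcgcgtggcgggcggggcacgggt
Adamtsl5, chr10:80348449-80348568, minus strand: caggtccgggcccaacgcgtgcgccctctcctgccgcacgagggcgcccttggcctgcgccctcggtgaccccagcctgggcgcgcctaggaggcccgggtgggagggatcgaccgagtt
Adamts1 and Adamtsl2 each had the match, 32 and 30 bases before the start, and the other pair did not. Of all 32851 RefSeq promoters, 4.93% held TATAA in this window, searched on the gene's strand, as did 9 of 37 member promoters (24.3%). Of these 9, 6 were among the 10 promoters of the MMP cluster on chromosome 9. The other 3 were among the 27 promoters of the remaining members (11.1%). The GC content of the 4 promoters shown, over 300 bases, ran from 62.3% to 72.0%. The median was 52.7% over all promoters and 66.0% over the 27 promoters of members outside the MMP cluster on chromosome 9.

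The procollagen N-proteinases remove the amino-terminal propeptide of fibrillar procollagens. Adamts2, the main one for type I collagen, stood at 31.0, 20.4, 28.7 and 21.3 CPM in vehicle and at 22.1, 11.9, 9.53, 15.4 and 19.4 CPM in cotadutide mice. Its cotadutide mouse 1 lay above vehicle mice 2 and 4. The difference (25.3 ± 5.31 against 15.7 ± 5.18 CPM, log2 fold change -0.69, SE 0.23) missed the threshold by edgeR with an adjusted p of 0.0587, and 7 of the 16 alternatives put it past, with adjusted p from 0.0246 to 0.18 over all 16. Adamts14 was at 1.21 ± 0.183 and 0.864 ± 0.610 CPM (edgeR adjusted p = 0.466), and Adamts3 had 25 and 21 counts over the groups. Among the other Adamts genes, Adamts10, which binds fibrillin, was the most abundant at 27.5 ± 5.44 and 24.3 ± 3.70 CPM (edgeR adjusted p = 0.396). Adamts6, Adamts7 and Adamts12 had means of at most 2.61 CPM and log2 fold changes of -0.62, -0.42 and -0.21 (edgeR adjusted p = 0.202, 0.288 and 0.581). Adamts13, the von Willebrand factor protease made mainly in liver, had 3 and 2 counts, and Adamts16 to Adamts19 had from 2 to 28 counts in a group.

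Timp2 and Timp4 were the most abundant members per length. Per kilobase of the gene's exons, Timp2 ranked highest of the 50 in vehicle mice at 23.4 CPM per kb, followed by Timp4 at 12.9, the gelatinase Mmp2 at 10.9, Timp3 at 9.01 and Mmp19 at 7.58 CPM per kb. In cotadutide mice the same 5 genes led in the order Timp2 (18.6), Timp4 (14.2), Mmp2 (9.80), Mmp19 (6.53) and Timp3 (6.25 CPM per kb). Timp3 overlaps exons of Syn3 on the opposite strand over 21.3% of its length, and Mmp19 overlaps Tmem198b over 23.1%, so part of their counts may belong to the other gene.

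No Timp gene passed. Timp1, the inducible inhibitor, was low: 2.88, 3.41, 1.06 and 1.46 CPM in vehicle and 1.65, 0.321, 0.213, 1.21 and 0.762 CPM in cotadutide mice. Vehicle mice 1 and 2 were above all others, and vehicle mice 3 and 4 lay among the cotadutide mice (edgeR log2 fold change -1.37 with SE 0.51 and adjusted p = 0.084). By DESeq2 it passed (adjusted p = 0.0447) and without cotadutide mouse 1 (edgeR adjusted p = 0.0374). Timp3, which is bound to the matrix, stood at 76.1, 69.5, 94.7 and 53.0 CPM against 49.1, 38.0, 54.2, 75.6 and 37.7 CPM (edgeR log2 fold change -0.52 with SE 0.22 and adjusted p = 0.11). Cotadutide mouse 4 was as high as the vehicle mice, and without it Timp3 passed (log2 fold change -0.74, edgeR adjusted p = 0.0367). Timp4, which is rich in fat and heart, was at 75.8 ± 14.4 and 83.7 ± 8.29 CPM (edgeR log2 fold change 0.14 with SE 0.12 and adjusted p = 0.43), with vehicle mice 1 and 2 below every cotadutide mouse.

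Mmp2, Mmp14 and Timp2 act together: the membrane-bound protease encoded by Mmp14 activates the Mmp2 precursor, with TIMP-2 as the bridge. None of the 3 passed. Timp2 stood at 116, 53.9, 98.3 and 95.9 CPM in vehicle and at 119, 53.3, 35.9, 61.7 and 92.4 CPM in cotadutide mice (edgeR log2 fold change -0.33 with SE 0.32 and adjusted p = 0.49). Mmp2 stood at 41.5, 22.3, 39.1 and 44.3 CPM against 45.7, 27.6, 22.4, 31.2 and 38.4 CPM (edgeR log2 fold change -0.15 with SE 0.23 and adjusted p = 0.667). Mmp14 stood at 13.1, 10.5, 9.78 and 20.5 CPM against 30.1, 11.5, 9.39, 13.8 and 18.5 CPM (edgeR log2 fold change 0.31 with SE 0.33 and adjusted p = 0.531). All 3 had their highest cotadutide value in mouse 1 and their lowest in mouse 3. The log2 fold change of Mmp14 was -0.049 without cotadutide mouse 1.

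**Figure D4:**
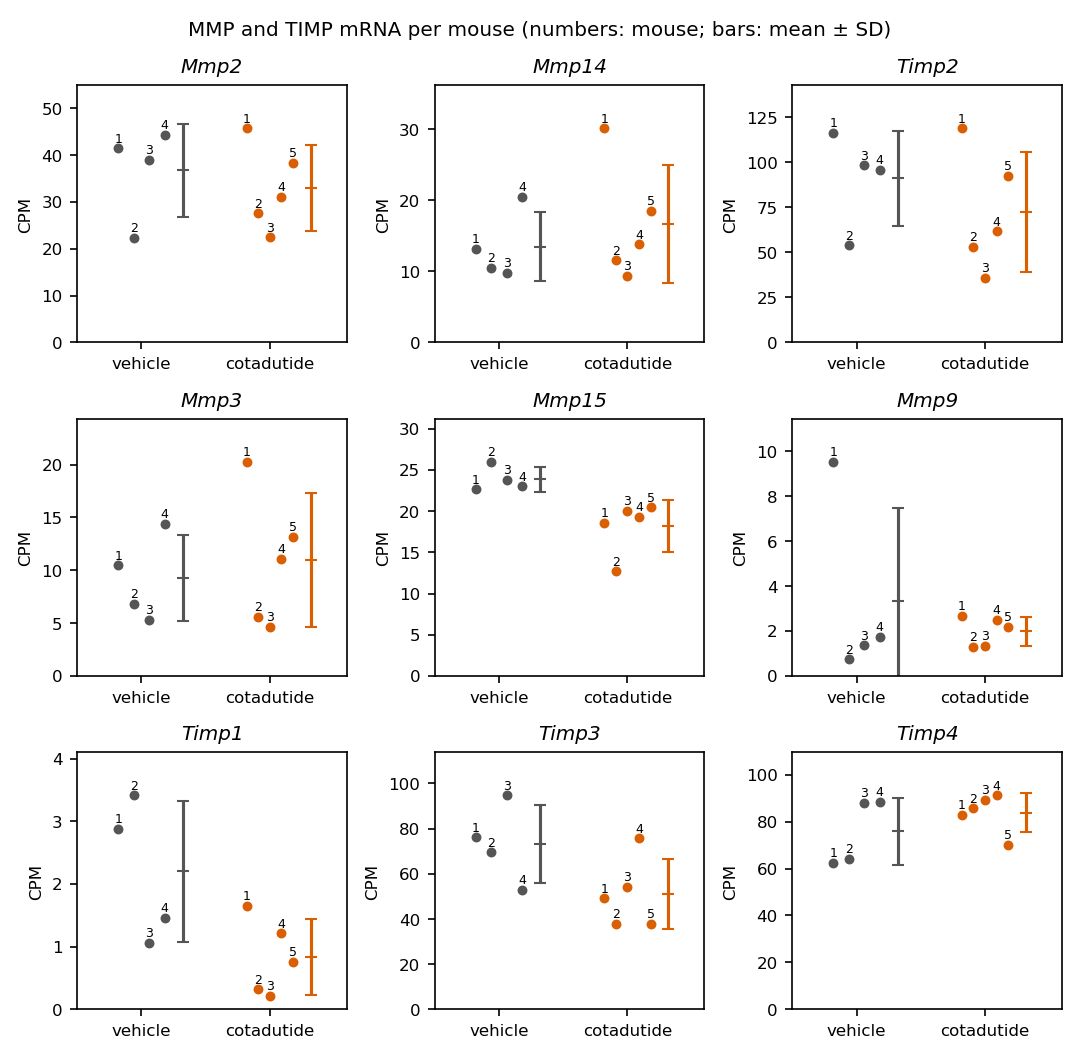
CPM (vertical axes, from 0) of 5 MMPs and the 4 TIMPs is plotted for each vehicle (grey) and cotadutide (orange) mouse with mouse numbers and the mean ± SD, of which the lower bar of Mmp9 in vehicle is cut at 0. The groups overlap in every panel but that of Mmp15, and cotadutide mouse 1 is the highest of its group for Mmp2, Mmp14, Mmp3, Mmp9, Timp1 and Timp2.

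Among the membrane-type MMPs, Mmp15 was the single member of the 32 whose groups did not overlap, against 15.8% of all genes tested. It stood at 22.6, 26.0, 23.8 and 23.0 CPM in vehicle and at 18.6, 12.7, 20.1, 19.3 and 20.5 CPM in cotadutide mice. The difference (23.9 ± 1.5 against 18.2 ± 3.17 CPM, log2 fold change -0.39, SE 0.13) narrowly missed the threshold by edgeR (adjusted p = 0.0514). It passed in 6 of the 16 alternatives, among them DESeq2 (adjusted p = 0.0279) and limma-voom (0.0438), with adjusted p from 0.0185 to 0.118 over all 16. Mmp17, anchored to the membrane by a lipid, had the largest value above 0 at 1.70 ± 0.583 and 2.54 ± 0.343 CPM (edgeR log2 fold change 0.59 with SE 0.24 and adjusted p = 0.102). It was called higher in 1 fit, that without vehicle mouse 4. Mmp16, Mmp24 and Mmp25 had 3 to 16 counts in a group.

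The other gelatinase, Mmp9, is made by myeloid cells and cuts denatured collagen. It stood at 9.53, 0.740, 1.36 and 1.73 CPM in vehicle and at 2.67, 1.28, 1.35, 2.48 and 2.19 CPM in cotadutide mice, so vehicle mouse 1 alone set the higher vehicle mean (edgeR log2 fold change -0.76 with SE 0.65 and adjusted p = 0.425). That mouse also had the highest sum of macrophage markers, 629 CPM, with 528 CPM in the next, vehicle mouse 4. Its sum of neutrophil markers was the lowest of the group, 1.24 CPM. The part of these cells in its Mmp9 value was not tested. Mmp19, a secreted MMP of many tissues, was at 25.9 ± 3.63 and 22.3 ± 3.49 CPM (edgeR log2 fold change -0.22 with SE 0.13 and adjusted p = 0.25). Mmp28, also secreted, was at 13.5 ± 2.33 and 13.3 ± 3.09 CPM (edgeR log2 fold change -0.029 with SE 0.17 and adjusted p = 0.922), and its sign turned without vehicle mouse 1 or cotadutide mouse 2. Mmp11 and Mmp23 had means below 5 CPM and log2 fold changes of -0.10 and -0.22 (edgeR adjusted p = 0.657 and 0.544), and Mmp21 had 9 and 8 counts over the groups.

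Of the MMPs, 9 members form a cluster on chromosome 9 between 7272514 and 7699585 (427 kb), and only Mmp3 and Mmp13 of them were tested. Mmp3, which encodes stromelysin and can activate other MMP precursors, stood at 10.5, 6.79, 5.30 and 14.4 CPM in vehicle and at 20.3, 5.58, 4.62, 11.1 and 13.1 CPM in cotadutide mice. The cotadutide values reached past the vehicle range at both ends (edgeR log2 fold change 0.25 with SE 0.42 and adjusted p = 0.705), and the value was -0.14 without cotadutide mouse 1. Mmp13, the main collagenase of rodents, was at 1.63 ± 1.39 and 0.812 ± 0.422 CPM (edgeR log2 fold change -0.96 with SE 0.66 and adjusted p = 0.319). Mmp1a, Mmp1b and Mmp20 had no read in any of the 9 libraries. At a limit of 3 counts a group this leaves room for 0.036 CPM without and 0.0377 CPM with the drug, for counting error only. Mmp7, Mmp8, Mmp10 and Mmp27 had from 0 to 33 counts in a group.

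MMP genes are known targets of the factor AP-1. Its binding motif was searched in the promoters as TGANTCA, with any base allowed at N, from 250 bases before to 50 after each start. The motif is its own reverse complement, so 1 search covers both strands. Promoters were in the RefSeq table for 35 of the 50 members. It was found in 7 of their 37 promoters (18.9%), against 7.81% of all promoters of the same length. All 7 belonged to the cluster on chromosome 9, where 7 of 9 genes held a match. The matches are shown in capitals with 12 bases on each side, 5′ to 3′ on the gene's strand, in GRCm38.p6, because genes with and without detectable RNA shared them.
Mmp3, chr9:7445764-7445794, plus strand: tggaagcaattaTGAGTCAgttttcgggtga
Mmp13, chr9:7272467-7272497, plus strand: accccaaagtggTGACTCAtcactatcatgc
Mmp10, chr9:7502267-7502297, plus strand: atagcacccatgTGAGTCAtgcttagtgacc
Mmp7, chr9:7692015-7692045, plus strand: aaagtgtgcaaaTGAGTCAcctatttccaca
Mmp1a, chr9:7464056-7464086, plus strand: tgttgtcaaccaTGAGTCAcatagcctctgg
Mmp1b, chr9:7388101-7388131, minus strand: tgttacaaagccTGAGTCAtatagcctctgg
Mmp20, chr9:7628124-7628154, plus strand: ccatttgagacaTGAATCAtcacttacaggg
The matches began from 35 to 95 bases before the start site. At N, Mmp20 held A, and the other genes held G or C. Mmp3 and Mmp13 were the 2 of these 7 genes with enough counts to test, and Mmp1a, with the same 7 letters as Mmp3, had no counts. GC content also set the cluster apart as a description: its 10 promoters ran from 37.7% to 52.0% GC and the 27 promoters of other members from 53.3% to 80.0%. A match says nothing of whether AP-1 was bound in this tissue.

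Summed over each family, the TIMP genes took 243 ± 38.6 CPM in vehicle mice against 208 ± 32.7 CPM under cotadutide, and the MMP genes 139 ± 19.5 and 129 ± 29.8 CPM. The ratio of the TIMP to the MMP sum was 1.63, 1.62, 2.22 and 1.57 in vehicle and 1.49, 1.84, 1.75, 1.73 and 1.41 in cotadutide mice, so the groups overlapped. The ADAMTS sum was 157, 155, 157 and 103 CPM in vehicle and 108, 75.8, 91.2, 100.1 and 105 CPM in cotadutide mice, with vehicle mouse 4 below 2 of the 5 cotadutide mice. The ADAMTS-like sum was 50.8, 38.3, 44.8 and 47.3 CPM against 38.8, 24.4, 25.5, 31.0 and 30.4 CPM, overlapping by cotadutide mouse 1 and vehicle mouse 2. These sums carry no test.

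Some mice were high or low across many members. Cotadutide mouse 1 had the highest value of its group for 16 of the 32 tested members and the lowest for 2, while cotadutide mice 2 and 3 each had the lowest for 12. Cotadutide mouse 4 had the highest for 8 and the lowest for 2, and mouse 5 had 4 of each. In cotadutide mouse 1 the macrophage and fibroblast sums were 511 and 531 CPM, the highest of the group. They were 257 and 319 CPM in mouse 2 and 230 and 282 CPM in mouse 3. In mouse 4 they were 293 and 320 CPM, and in mouse 5 337 and 415 CPM. By counts of highest values, mice 4 and 5 were not in the order of these sums. Nor were mice 2 and 3, which had the highest value for 1 and 3 members. Cotadutide mice 2 and 3, each lowest for 12 members, did have the lowest macrophage and fibroblast sums. In vehicle, mouse 1 had the highest value for 12 members and the lowest for 5, with the highest macrophage and fibroblast sums, 629 and 667 CPM. Of the other vehicle mice, mouse 2 had the highest for 5 and the lowest for 7, mouse 3 for 6 and 10, and mouse 4 for 9 and 10. Vehicle mouse 4, low in Adamts1 and Adamts5, had the highest muscle sum, 43597 CPM. The part of these markers in the members' values was not tested.

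**Figure D5:**
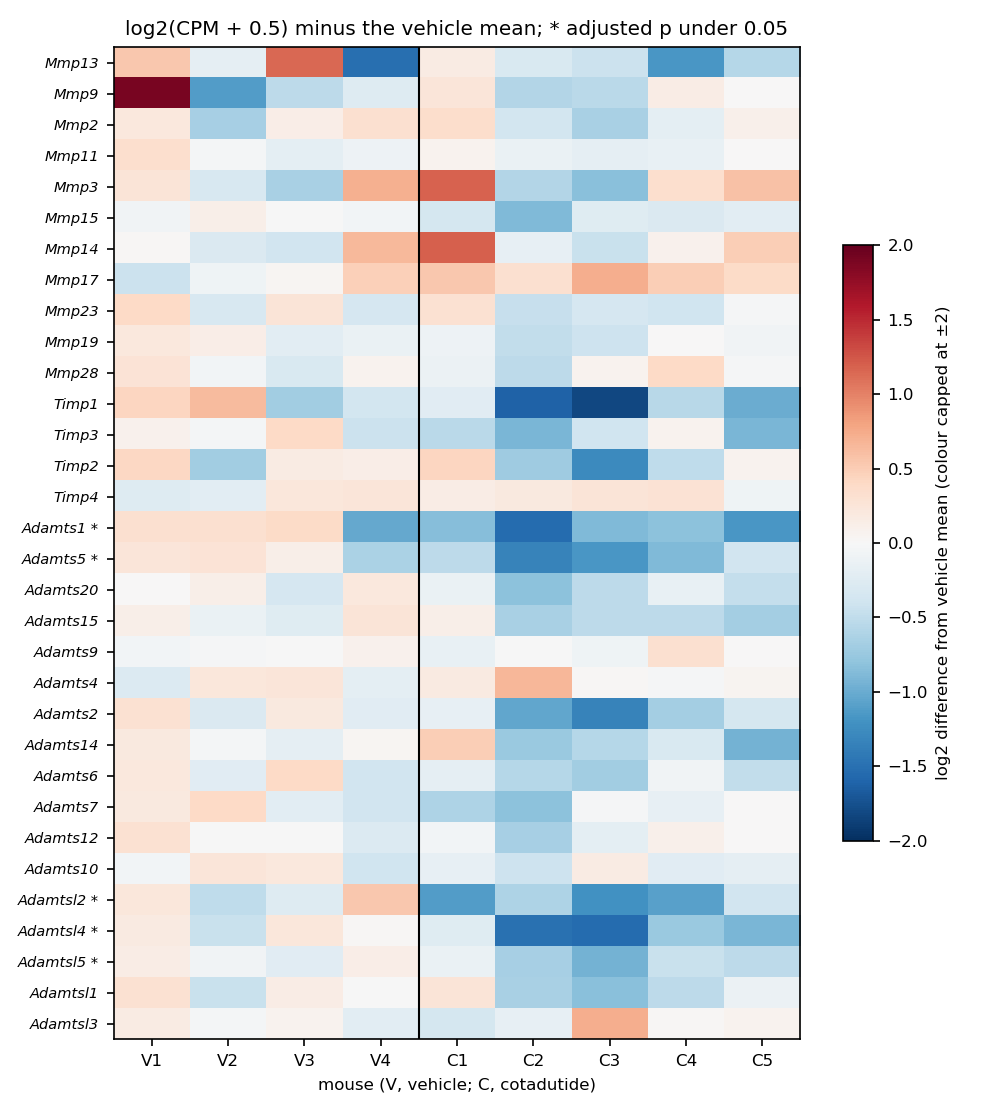
Each row is a tested member and each column a mouse (V, vehicle; C, cotadutide); colour gives log2(CPM + 0.5) minus the vehicle mean, blue for lower and red for higher, and asterisks mark the 5 called members. Columns C2 and C3 are blue over most rows, while C1 holds red rows such as Mmp3 and Mmp14.

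Other genes of pericellular proteolysis were read from lists of the pathway. Beside the counts of each list stand the shares over all genes tested, 9.34% lower and 9.31% higher. In the plasminogen system, which activates several MMP precursors, 3 of 6 tested genes fell and 1 rose. Serpine2, a secreted serine protease inhibitor, fell 1.74 times, from 42.5 ± 2.73 to 24.4 ± 5.23 CPM (edgeR adjusted p = 0.014). Plau, the activator urokinase, was 1.6 times lower (edgeR adjusted p = 0.0321) and was named after its values were seen. Plgrkt, a plasminogen receptor, rose 1.37-fold (adjusted p = 0.0163).

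Of the membrane-bound ADAM proteases, relatives that shed cell surface proteins, 3 of 10 fell and 0 rose, and no others passed at an unadjusted p of 0.05. Adam8, of myeloid cells, went from 7.96 ± 3.83 to 2.68 ± 1.25 CPM (edgeR adjusted p = 0.0227), Adam9 fell 1.48 times and Adam19 1.44 times. Of the activating convertases, other inhibitors and clearance receptors, 2 of 10 fell and 1 rose. Cd44, a hyaluronan receptor that docks MMPs, fell 2.26 times and the inhibitor Tfpi2 2.46 times, from 1.74 ± 0.448 CPM, while the convertase Pcsk5 rose 1.93-fold (6.64 ± 1.03 against 12.7 ± 3.27 CPM, edgeR adjusted p = 0.0163). Furin, which activates membrane-type MMPs and ADAMTS proteases, was level (log2 fold change 0.026, edgeR adjusted p = 0.832). Reck, a membrane-bound MMP inhibitor, did not pass (log2 fold change -0.39, edgeR adjusted p = 0.23).

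Of the procollagen C-proteinases and their enhancers, 1 of 3 fell, the enhancer Pcolce (125 ± 37.9 against 56.1 ± 8.14 CPM, 2.22 times lower, edgeR adjusted p = 0.0144). Of 6 cathepsins, Ctss, abundant in macrophages, fell 2.09 times and Ctsz rose 1.66-fold (edgeR adjusted p = 0.0258 and 0.0489). Among 22 tested substrates of these enzymes 11 fell and 1 rose. Nid1 of the basement membrane fell 1.92 times, the small proteoglycan Bgn 1.76 times, and Ncan, a relative of versican and aggrecan, 2.94 times from 5.90 ± 1.31 CPM. Versican itself, Vcan, fell 1.85 times, from 4.04 ± 1.71 to 2.18 ± 0.443 CPM (adjusted p = 0.0449 by edgeR), and was named after its values were seen. Aggrecan, Acan, was too low to test. The laminin gene Lamb1 was the 1 that rose, 1.31-fold (edgeR adjusted p = 0.0476).

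Over the 57 tested genes of these 6 lists, 21 were lower and 4 higher, or 36.8% and 7.02%, against 9.34% and 9.31% of all genes. These counts depended on single libraries too, as did the calls over all genes. Leaving out vehicle mouse 1 gave 3 lower (5.26% of the 57) and 0 higher. The 3 were 1 of 6 in the plasminogen system, 1 of 3 C-proteinases and enhancers and 1 of 22 substrates. Over all genes that fit called 92 lower and 47 higher of 14816. Leaving out vehicle mouse 2 gave 4 (7.02%) and 0, against 105 and 42 of all 14823 genes. The pathway counts were 7 and 2 when vehicle mouse 3 was dropped and 5 and 2 when cotadutide mouse 2 was. They were 10 and 2 for cotadutide mouse 3. Calls in either direction over all genes came to 4.95%, 5.55% and 9.35% in the same order, from 18.7% with all 9 libraries. Dropping cotadutide mouse 1 or mouse 4 left 2 higher pathway genes. Of the marker sums, that of muscle was lower under cotadutide without overlap, and those of macrophages and fibroblasts overlapped between the groups. The sum of adipocyte markers was higher without overlap, from 16302 to 18326 CPM in vehicle and from 21511 to 25612 CPM in cotadutide mice. The part of these cells in the pathway counts was not tested.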

How the data were processed

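RNA was measured in 9 libraries, 1 per mouse. The authors deposited raw counts of reads per Ensembl gene with exon coordinates, 1 file per library. Per the submitters' processing notes, the tools were Subread 1.5.2 (featureCounts), STAR 2.5.2b, Trimmomatic 0.36 and bcl2fastq 2.17, on build mm10. Their settings, the use of strand and the gene annotation's version are not stated in these notes, so reads of overlapping genes on opposite strands could not be told apart. A symbol was found for 48970 of 49315 identifiers. The labels gave each mouse's group and number.

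Genes were filtered with filterByExpr (14747 left, 99.9% of counts), scaled with TMM, the trimmed mean of M values (factors from 0.915 to 1.06), and tested with edgeR 4.0.16 in R 4.3.3 (glmQLFit with robust dispersion, glmQLFTest, group as the only term, all 9 libraries), with Benjamini-Hochberg adjustment over all genes tested at 0.05. The standard error (SE) was the size of the log2 fold change over the square root of F. The common coefficient of biological variation was 17.0%. No pair of libraries was alike within sampling noise (lowest chi-square per degree of freedom 11.5). The fit was tested on simulated counts. Levels between genes were compared per kilobase of the file's exon length. Alternatives were other scalings and filters, DESeq2 1.42.0, limma-voom (limma 3.58.1), leaving out each library, and a block on mouse number. Limits for genes at 0 used 3 counts and the summed group total.

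The members, the lists and the tests were chosen with earlier results of these data known. The rule named members past the threshold, members whose mean reached 5 CPM in either group, and the Timp genes, from each pathway list at most 3 genes with the smallest adjusted p, and from each cell type list the 2 most abundant. Some further genes are named with values seen, and some genes that the rule picks are not reported here. Pathway lists were of ADAM proteases, the plasminogen system, activation with other inhibitors and clearance, procollagen C-proteinases, cathepsins and substrates. Cell type lists were of macrophages, neutrophils, fibroblasts, endothelial, mural, skeletal muscle, brown adipocyte, adipocyte, T and NK, B and plasma, mesothelial and Schwann cells. The TATAA search and GC content were added after the data were seen. A planned search of protein motifs was not run.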

Additional observations from a re-analysis of the deposited data

Results flagged for a closer look

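Of 74 sets of values checked (the 32 tested members and 5 family measures, in each group), 7 held a mouse set apart from the others of its group by more than Dixon's limit of 0.829 for 4 mice or 0.71 for 5. Chance flags about 1 in 20 such sets. No explanation was tested for any of them.

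Mmp9 was 9.53 CPM in vehicle mouse 1, with the next vehicle mouse at 1.73 CPM. Adamts1 was 12.7 CPM in vehicle mouse 4, with the next at 33.2 CPM. The summed ADAMTS genes came to 103 CPM in the same mouse, with the next at 155 CPM. The ratio of TIMP to MMP sums was 2.22 in vehicle mouse 3, with the next at 1.63. In cotadutide mice, Mmp15 was 12.7 CPM in mouse 2, with the next at 18.6 CPM. Adamts4 was 1.28 CPM in that mouse, with the next at 0.772 CPM. Adamts15 was 2.83 CPM in cotadutide mouse 1, with the next at 1.65 CPM.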

How the results depend on the processing

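The 5 members called lower became 3 without a filter on low counts. Adamts1, Adamts5 and Adamtsl4 were lost, with edgeR adjusted p from 0.0719 to 0.105, and Mmp15 was gained, at 0.0185. They became 8 by DESeq2, and from 0 to 9 with 1 library left out. Of all genes, 7.57% were called without a filter, 22.9% by DESeq2, and from 0.938% to 24.9% with 1 library left out. The 0 members called higher became 0 to 1 with 1 library left out, the 1 being Mmp17 without vehicle mouse 4, and stayed at 0 in the other alternatives. With mouse number as a replicate block over mice 1 to 4 of each group, 5 members were lower, 4 of them among the 5 above, since Adamts1 was lost (adjusted p = 0.0847) and Adamts2 gained (0.0427). Same-numbered mice correlated between -0.04 and 0.135 in their deviations from the group means. Of 8 libraries, 2 correlated best with their own number, both of them mouse 1. The labels do not say what the numbers mean, and so few pairs cannot show whether same-numbered mice were linked. Of the pathway genes, 21 lower and 4 higher became 3 to 27 and 0 to 5 with 1 library left out, 15 and 2 without a filter, and 15 and 3 with the block. Pathway counts under alternatives were added after the data were seen.

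Log2 fold changes changed sign for 5 of the 19 members named by the rule, none of them called. Mmp14 and Mmp3 were at 0.31 and 0.25 with all 9 libraries, and their sign turned only without cotadutide mouse 1. Adamts9 was -0.042 with raw library totals, -0.018 without a filter, -0.0033 with a stricter filter and -0.0071 with the block. With 1 library left out, Adamts9 ran from -0.087 to 0.059, Adamtsl3 from -0.15 to 0.19, Mmp14 from -0.049 to 0.58, Mmp28 from -0.18 to 0.076 and Mmp3 from -0.14 to 0.54. The cause was not tested. The median over all genes moved to -0.07 with raw library totals. With 4 and 5 mice, members under about 1 CPM were not tested or had wide errors.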

Other observations

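Markers of other cells that make these enzymes were at the following levels. Neutrophils, a source of Mmp8, Mmp9 and Mmp25, were hardly represented: the sum of 8 markers ran from 1.24 to 2.77 CPM in vehicle and from 1.52 to 5.83 CPM in cotadutide mice, S100a8 and S100a9 were the most abundant at 0.734 and 0.680 CPM in vehicle, and Ngp had no counts. Of the 3 neutrophil markers tested 1 was higher, Elane, which rose 4.6-fold from a vehicle mean of 0.239 ± 0.129 CPM, without overlap of the groups (edgeR adjusted p = 0.0161), named after its values were seen. Endothelial markers, led by Pecam1 and Cdh5, ran from 564 to 699 CPM and from 604 to 765 CPM, with 1 of 8 higher. Mural markers, led by Rgs5 and Acta2, ran from 396 to 555 CPM and from 378 to 519 CPM, with 1 of 8 higher. Among the markers of fibroblasts and progenitors, Dpt and Ly6a led, at 146 and 102 CPM in vehicle. Among those of macrophages, Lyz2 and C1qa led, at 184 and 63.4 CPM in vehicle. Those of skeletal muscle were led by Myh4 and Acta1, at 5374 and 4710 CPM in vehicle, and 7 of 12 were lower.

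Adipocyte markers, led by Fabp4 and Pnpla2, ran from 16302 to 18326 CPM in vehicle and from 21511 to 25612 CPM in cotadutide mice, with 4 of 8 higher and no overlap. Brown adipocyte markers, led by Ucp1 and Cox8b, ran from 7771 to 12098 CPM and from 11743 to 16993 CPM, with overlap. Of these markers 4 of 8 were higher, Cox8b among them but not Ucp1. B and plasma cell markers, led by Jchain and Cd79a, came to 38.0 CPM in cotadutide mouse 3, T and NK cell markers, led by Cd4 and Nkg7, to 14.0 CPM in that mouse, and the other mice had at most 4.32 and 4.36 CPM. Mesothelial markers, led by Lrrn4 and Upk3b, ran from 1.40 to 2.49 CPM and from 2.57 to 7.05 CPM, with the 1 tested higher. Schwann cell markers ran from 35.4 to 103.5 CPM and from 58.0 to 76.6 CPM, with 0 of 4 called by edgeR and none at an unadjusted p under 0.05.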
